A study of Mus musculus with 8 samples.

Results

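A set of 10 matrix genes was followed in mouse colon: the adhesive and matricellular glycoproteins Fn1, Tnc, Thbs1, Postn, Sparc and Spp1, the lysyl oxidases Lox and Loxl2, and the small leucine-rich proteoglycans Dcn and Lum. They were taken by symbol, with the brightest probe set per gene among those annotated to a single gene. That left 8 of the 10, out of 30689 named genes, each with 1 probe set. Spp1 and Loxl2 are not analysed here: Spp1 had no probe set annotated to it in the table used, and the only probe set naming Loxl2 also names other genes.

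The 3 inflamed mice were given naïve T cells and had severe colitis when killed, and the 5 control mice were given regulatory T cells (Treg) and had colons without inflammation. All 8 mice were Rag1-/- on the C57BL/6 strain, so neither group had mature T or B cells of its own. Injection was at 10 weeks of age with death 2 to 4 months later, and the labels give an age of 4 to 5 months for both groups. The sampled region is uncertain, since the sample protocol describes distal colon and the series text a piece running from caecum to rectum. Each mouse gave 1 array of RNA from intact tissue. Values are log2 intensities made by the authors with RMA, a method that corrects background, scales arrays to each other and combines the probes of a set. A change of 1 is a 2-fold change in intensity, and differences are inflamed minus control.

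The extracellular matrix of the gut wall is laid down mainly by fibroblasts and smooth muscle cells. Fibronectin (Fn1) is assembled into fibrils that cells grip through integrins, while tenascin-C (Tnc), thrombospondin-1 (Thbs1), periostin (Postn) and SPARC are matricellular proteins that modulate adhesion and growth factor signalling and are known for their roles in tissue repair. Lysyl oxidase (Lox) cross-links collagen and elastin, and decorin (Dcn) and lumican (Lum) bind collagen fibrils and regulate their assembly.

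Array medians lay between 4.81 and 4.91, and probe sets against introns, used here as a gauge of background, had array medians of 4.92 to 5.11. Across all transcript clusters, inflamed arrays correlated with each other at 0.986 to 0.995, control arrays at 0.994 to 0.997, and pairs across the groups at 0.98 to 0.986. The mean level of 7 epithelial markers was 11.65 to 11.74 on inflamed arrays and 11.43 to 11.63 on control arrays. These markers gauge epithelium and do not test which part of the gut was sampled.

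Lysyl oxidase was higher in severely inflamed colon. Periostin was lower at the edge of the threshold, and its call was lost when most single arrays were left out. Of the 8 genes measured, Lox rose, Postn fell and 6 did not pass the threshold, an adjusted p under 0.05 in limma's test with Benjamini-Hochberg adjustment over all genes. Over all genes 13.1% passed (8.08% higher and 5.04% lower), and among genes brighter than the all-gene median 22.4% passed. The median difference was 0.079 over the 8 genes and -0.013 over all genes. Inflamed and control values did not overlap for 2 of the 8 genes, Lox and Postn, and for 21.2% of all genes.

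**Figure D1:**
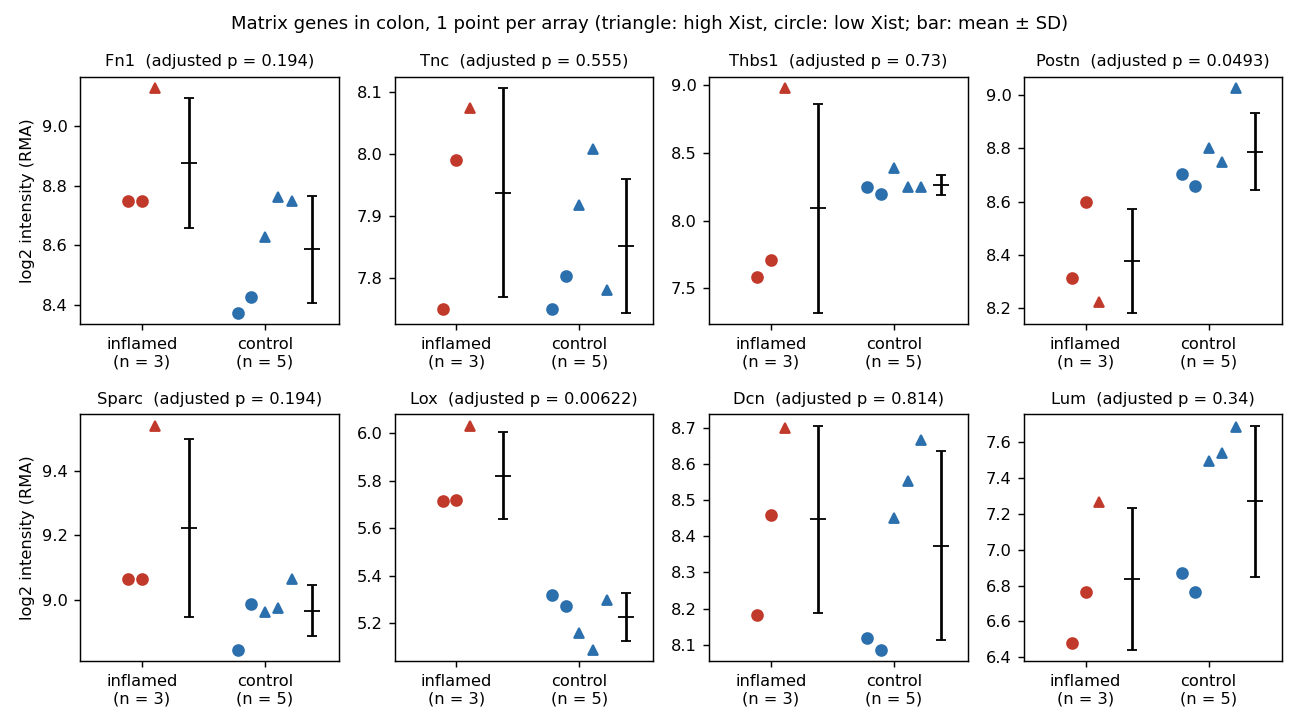
Log2 intensity of the 8 measured matrix genes on each array, with inflamed mice (n = 3, red) left of control mice (n = 5, blue), the mean ± SD beside each group and the adjusted p above each panel. Inflamed values lie above all controls for Lox and below all controls for Postn, and the groups overlap for the other 6 genes.

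Lox, whose product starts the cross-linking of collagen and elastin, was the clearest riser. It was at 5.71, 5.72 and 6.03 in the 3 inflamed mice, against 5.32, 5.27, 5.16, 5.09 and 5.30 in the 5 control mice. Every inflamed value lay above every control value. The means were 5.82 ± 0.18 in inflamed colon (SD, n = 3) and 5.23 ± 0.100 in control colon (SD, n = 5), a difference of 0.60 ± 0.090 (SE), or 1.51-fold (limma adjusted p = 0.00622). The call held with each array left out in turn (adjusted p = 0.0106 to 0.0192). The level was low: 67.4% of intronic control probe sets were dimmer than its inflamed mean and 55.4% were dimmer than its control mean and its values thus lay near background.

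The wider group of cross-linking and collagen-modifying enzymes gave no call. Of its 14 measured members, among them Loxl1, Loxl3 and Loxl4, 0 rose and 0 fell by limma's adjusted test, against 13.1% of all genes called. At an unadjusted p under 0.05 in limma, 1 was higher and 1 lower. The list was not tested as a set. The largest differences were those of P4ha1, a subunit of the enzyme that hydroxylates collagen prolines, at 0.35 ± 0.12 (SE, limma adjusted p = 0.0947), and Pcolce2, an enhancer of procollagen processing, at -0.27 ± 0.10 (SE, limma adjusted p = 0.13).

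Postn, a matricellular protein that links collagen and tenascin-C and is made by fibroblasts, was at 8.31, 8.60 and 8.22 in inflamed mice, against 8.71, 8.66, 8.80, 8.75 and 9.03 in control mice. All 3 inflamed values lay below the control range, the nearest, on inflamed replicate 2, by a narrow margin. It fell by 0.41 ± 0.11 (SE, 95% interval -0.67 to -0.16) on the log2 scale, with means of 8.38 ± 0.20 in inflamed colon (SD, n = 3) and 8.79 ± 0.14 in control colon (SD, n = 5), and limma adjusted p = 0.0493. That p is at the edge of the threshold. The call was lost when any of the 5 controls, inflamed replicate 1 or inflamed replicate 3 was left out (limma adjusted p = 0.0685 to 0.153). Without inflamed replicate 2 the difference was -0.52 (limma adjusted p = 0.0214). The call was also lost after median centring of the arrays (limma adjusted p = 0.0668). With a floor on low values it was lost as well (limma adjusted p = 0.086). In bulk tissue, fewer cells of a type and less RNA per cell cannot be told apart.

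The promoters of Postn, Sparc and Tnc are shown because they are the 3 measured members that the RefSeq promoter table (GRCm38.p6) holds, 1 that fell and 2 that did not pass. Each is the 250 bases before the annotated transcription start, read 5′ to 3′ on the gene's own strand. Capitals mark matches, on either strand, to the TATA box TATAAA, the AP-1 motif TGANTCA or CAGAC, a short motif bound by SMAD proteins, which carry signals of transforming growth factor beta.
Postn, chr3:54359017-54359266, plus strand: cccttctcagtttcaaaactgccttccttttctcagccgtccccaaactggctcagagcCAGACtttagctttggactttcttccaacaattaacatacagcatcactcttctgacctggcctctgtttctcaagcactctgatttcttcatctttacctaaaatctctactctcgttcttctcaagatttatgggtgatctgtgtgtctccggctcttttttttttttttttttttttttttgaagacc
Sparc, chr11:55420081-55420330, minus strand: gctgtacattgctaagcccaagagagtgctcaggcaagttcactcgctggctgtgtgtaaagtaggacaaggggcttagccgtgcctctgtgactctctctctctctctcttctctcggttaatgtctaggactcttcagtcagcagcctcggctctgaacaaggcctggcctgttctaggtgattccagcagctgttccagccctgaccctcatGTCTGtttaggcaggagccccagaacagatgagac
Tnc, chr4:64047016-64047265, minus strand: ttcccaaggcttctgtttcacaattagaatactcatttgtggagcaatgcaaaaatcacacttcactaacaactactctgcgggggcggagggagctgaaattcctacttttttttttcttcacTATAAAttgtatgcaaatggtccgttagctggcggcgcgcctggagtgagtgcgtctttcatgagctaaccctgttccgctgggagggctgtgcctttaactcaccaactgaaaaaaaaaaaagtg
Postn and Sparc each held 1 match to CAGAC, starting 191 and 35 bases before the start site, and Tnc held 1 match to TATAAA, 126 bases before it. TGANTCA was in 0 of the 3 windows. Over all 32851 windows of this length, 42.2% held CAGAC, 12.4% held TATAAA and 6.75% held TGANTCA. Each window held 1 match in all, so no matches overlapped, and a match is a run of letters and not a shown binding site.

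Fn1 and Sparc were at the top of the rest, higher on average in inflamed mice without passing. Fn1 was at 8.75, 8.75 and 9.13 in inflamed mice, against 8.37, 8.43, 8.63, 8.76 and 8.75 in control mice, so that both lower inflamed values lay at the level of the highest controls. The difference was 0.29 ± 0.13 (SE, 95% interval -0.015 to 0.59, limma adjusted p = 0.194). Sparc, a collagen-binding matricellular protein, was at 9.06, 9.06 and 9.54 in inflamed mice, against 8.84, 8.99, 8.96, 8.97 and 9.06 in control mice. Its difference of 0.26 ± 0.12 (SE, 95% interval -0.013 to 0.53, limma adjusted p = 0.194) rested largely on inflamed replicate 3, and without that array it was 0.098.

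Tnc, an adhesion-modulating glycoprotein known from healing wounds, was at 7.75, 7.99 and 8.07 in inflamed mice, against 7.75, 7.80, 7.92, 8.01 and 7.78 in control mice. The groups overlapped over most of their range. The difference was 0.085 ± 0.089 (SE, 95% interval -0.12 to 0.29, limma adjusted p = 0.555), and the upper bound is a rise of 0.29 on the log2 scale. Set against Fn1 on the same array, Tnc was -0.94 ± 0.16 in inflamed mice (SD, n = 3) and -0.74 ± 0.14 in control mice (SD, n = 5), and the difference of -0.20 did not pass an exact two-sided permutation test over the 56 splits of the arrays (p = 0.0893, adjusted p = 0.0893 over the 2 pairs compared). It passed without control replicate 5 (-0.26, exact permutation adjusted p = 0.0286) or inflamed replicate 2 (-0.29, exact permutation adjusted p = 0.0476). Each is the smallest p the remaining splits can give, and adjustment left it unchanged only because the other pair, Dcn and Lum, had the same p. With any other array left out it did not pass (exact permutation adjusted p = 0.143 to 0.238).

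Thbs1, an adhesive glycoprotein that also activates latent transforming growth factor beta and is stored in platelets, split the inflamed mice. It was at 7.58 and 7.71 on inflamed replicates 1 and 2 and at 8.98 on inflamed replicate 3, against 8.25, 8.20, 8.39, 8.25 and 8.25 in control mice. Inflamed replicates 1 and 2 lay below the whole control range and inflamed replicate 3 above it. The SD was 0.77 in inflamed colon (n = 3) and 0.073 in control colon (n = 5), and the mean difference was -0.17 ± 0.30 (SE, 95% interval -0.87 to 0.52, limma adjusted p = 0.73). Without inflamed replicate 3 the difference was -0.62 (limma adjusted p = 0.00323). Platelet markers lay closer together in inflamed mice, with SDs of 0.21 for Gp9, 0.17 for Itga2b and 0.026 for Pf4 (n = 3). Pf4, a platelet chemokine and the tightest of them, was at 6.23, 6.28 and 6.23 in inflamed mice. It was at 6.05, 6.18, 6.25, 6.22 and 6.26 in control mice. Of the 3 measured platelet markers 0 passed limma's test, adjusted or at an unadjusted p under 0.05. The part of platelets in the Thbs1 values was not tested. Deposited values repeat exactly on some arrays: Thbs1 holds the same value on 3 arrays, all controls, Fn1 and Sparc each hold 1 value on 2 arrays, and 59.6% of all genes have such a repeat, so a small SD can rest in part on ties.

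Inflamed replicate 3 had the highest value of the 3 inflamed arrays for 7 of the 8 genes, all but Postn, against 28.9% of all genes. The same array had the highest mean of the neutrophil markers, 9.34, against 7.58 and 8.16 on inflamed replicates 1 and 2 and 5.26 to 5.57 on control arrays. All 6 neutrophil markers and all 8 monocyte and macrophage markers were measured, of which 4 and 8 rose, against 8.08% of all genes. Macrophage marker means were 7.63, 7.92 and 7.99 on inflamed replicates 1, 2 and 3 and 6.31 to 6.52 on control arrays. The part of these cells in the matrix values was not tested.

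**Figure D2:**
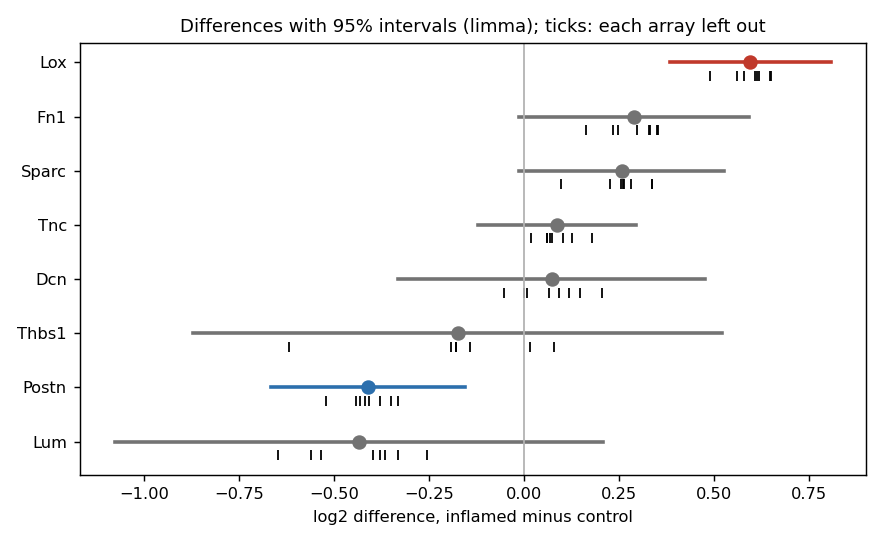
Log2 difference, inflamed minus control, of each measured matrix gene with its 95% limma interval (red rose, blue fell, grey not passed), and below each line a tick for the difference with each of the 8 arrays left out. The interval of Lox lies above 0 and that of Postn below it, and the Thbs1 tick at -0.62 is the value without inflamed replicate 3.

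The proteoglycans Dcn and Lum did not pass, and varied more among controls than the other members. Dcn, which coats collagen fibrils and binds transforming growth factor beta, was at 8.18, 8.46 and 8.70 in inflamed mice, against 8.12, 8.08, 8.45, 8.55 and 8.67 in control mice, a difference of 0.072 ± 0.17 (SE, 95% interval -0.33 to 0.48, limma adjusted p = 0.814). Lum, a keratan sulfate proteoglycan of collagen fibrils, was at 6.48, 6.76 and 7.26 in inflamed mice, against 6.87, 6.76, 7.49, 7.54 and 7.68 in control mice, a difference of -0.43 ± 0.27 (SE, 95% interval -1.08 to 0.21, limma adjusted p = 0.34). Both groups overlapped for both genes. The range from lowest to highest control was 0.92 for Lum and 0.58 for Dcn, and 0.19 to 0.39 for the other 6 genes.

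The balance of Dcn to Lum differed between the groups. Dcn minus Lum on the same array was 1.70, 1.69 and 1.44 in inflamed mice, against 1.25, 1.32, 0.96, 1.01 and 0.98 in control mice. Every inflamed value lay above every control value. The means were 1.61 ± 0.15 in inflamed colon (SD, n = 3) and 1.10 ± 0.17 in control colon (SD, n = 5), a difference of 0.51 (exact two-sided permutation p = 0.0179, the smallest that 56 splits can give, adjusted p = 0.0357 over 2 pairs). A difference of this kind within arrays shows unequal change and not which gene changed. It no longer passed after quantile normalization (exact permutation adjusted p = 0.0714). Nor did it pass when control 1, 2, 3 or 4 or inflamed replicate 1 or 3 was left out (difference 0.46 to 0.59, exact permutation adjusted p = 0.0571 to 0.114). With an array left out there are fewer splits and the smallest p is larger, so losses at that smallest p alone do not show a weaker difference. Without control 1 the p was above the smallest possible (exact permutation adjusted p = 0.114, against 0.0571 without control 2, 3 or 4).

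Fn1, Dcn and Lum followed a split within both groups that the labels do not give. Xist, the RNA that coats the inactive X chromosome of female cells, was at 10.65 to 11.28 on inflamed replicate 3 and controls 3, 4 and 5, and at 4.11 to 4.53 on inflamed replicates 1 and 2 and controls 1 and 2. For Fn1, Dcn and Lum, each array with high Xist lay above every low one of its own group. That held for 3 of the 8 genes and for 2.75% of all genes, with the reverse order in 1.91%. Lum was 0.64 higher with high Xist within inflamed mice (1 against 2 arrays) and 0.76 higher within control mice (3 against 2 arrays), Dcn was 0.38 and 0.45 higher, and Fn1 was 0.38 and 0.31 higher. No test was made of this split, which was read from the data, and what else may differ between these arrays was not tested.

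With the Xist classes as a block, Fn1 rose in inflamed colon by 0.38 ± 0.042 (SE, limma adjusted p = 0.00445), against the 0.29 that did not pass without the block. The inflamed minus control difference of Fn1 was 0.41 among arrays with high Xist, of which 1 was inflamed, and 0.35 among those with low Xist. Its SE was 0.13 without the block. The classes were read from these data and Fn1 is among the genes that follow them, which limits this call. Lox kept its rise with the block, at 0.61 ± 0.099 (SE, limma adjusted p = 0.0147), and was 0.85 and 0.42 higher in inflamed mice with high and low Xist. The Postn call ended with the block, at -0.40 ± 0.12 (SE, limma adjusted p = 0.0921), with differences of -0.64 and -0.23 in the high and low classes. Lum was at -0.24 ± 0.083 (SE, limma adjusted p = 0.128) and Dcn at 0.19 ± 0.080 (SE, limma adjusted p = 0.209). With the classes as a block and splits kept within them, Dcn minus Lum differed by 0.43 and Tnc minus Fn1 by -0.25 (exact permutation adjusted p = 0.0417 each, the smallest that the 24 such splits can give). By the plain difference of means over the same 24 splits neither passed after adjustment (exact permutation p = 0.0417 and 0.125, adjusted p = 0.0833 and 0.125), so at this number of splits the calls turn on the statistic used. Dcn minus Lum was 0.45 higher in inflamed mice among arrays with high Xist and 0.41 higher among those with low Xist.

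**Figure D3:**
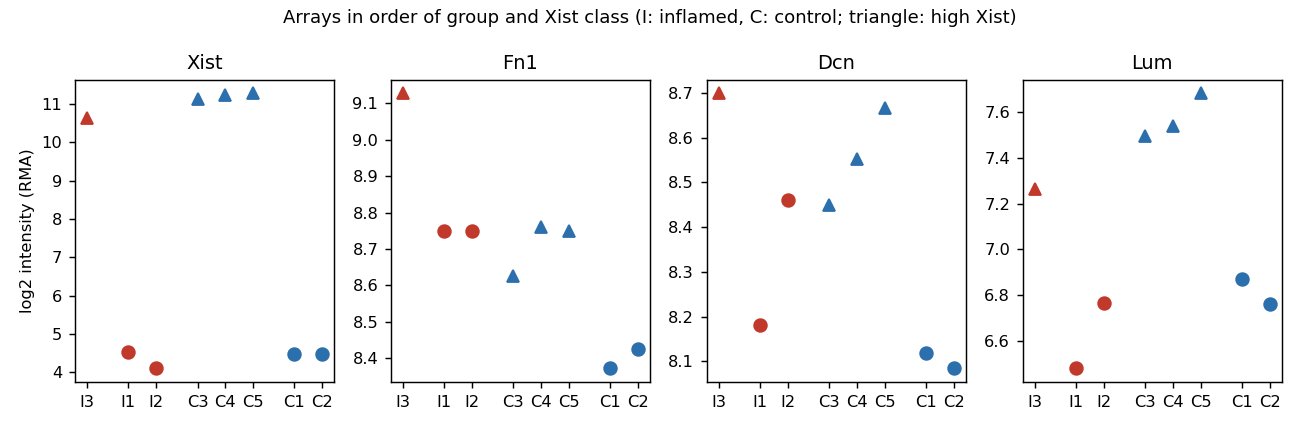
Log2 intensity of Xist, Fn1, Dcn and Lum on each array, ordered by group and by Xist class, with inflamed mice (I, red) left of control mice (C, blue) and arrays with high Xist as triangles. Within each group the triangles lie above the circles for all 4 genes.

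The gene nearest to each member in pattern was the one with the smallest mean absolute difference between gene-centred log2 values over the 8 arrays, among genes brighter than the all-gene median. For Lum it was Tsix, the antisense partner of Xist, at a mean distance of 0.16, and for Dcn Eif2s3x, an X-linked translation factor gene, at 0.074. For Fn1 it was Fstl1, a secreted relative of SPARC, at 0.043, for Sparc Snx18 at 0.045, for Postn Xpr1 at 0.036, for Tnc Plvap at 0.061 and for Thbs1 Bglap2 at 0.100. For Lox it was Fgr, a kinase of myeloid cells, at 0.043. Fgr had means of 6.13 ± 0.22 in inflamed colon (SD, n = 3) and 5.50 ± 0.13 in control colon (SD, n = 5). It was picked because its values follow those of Lox on these arrays, so its rise of 0.63 is no separate result. The part of myeloid cells in the Lox values was not tested.

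The wider matrix and its receptors were described with 6 lists of 102 genes, of which 95 were measured. Of these, 12 rose and 13 fell, or 26.3% in all against 13.1% of all genes and 22.4% of the brighter ones. The rises and falls were unevenly placed among the lists, which were chosen with earlier results of these data known, and no list was tested as a set.

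Some receptors for these proteins were higher in inflamed colon. Of 13 measured, 6 rose, 0 fell and 7 did not pass (46.2% called, against 13.1% of all genes and 22.4% of the brighter ones). At an unadjusted p under 0.05 in limma, 8 were higher and 2 lower. The median difference was 0.28, and the count of rises was 5 or 6 with each array left out. Itgav, the integrin alpha chain that binds fibronectin, periostin and other ligands, was at 9.64, 9.54 and 9.79 in inflamed mice, against 8.41, 7.996, 7.93, 8.34 and 8.22 in control mice. The groups were far apart, and the rise was 1.48 ± 0.12 (SE, limma adjusted p = 0.000703). Itgb6, its epithelial beta partner, which binds fibronectin and activates latent transforming growth factor beta, rose by 1.27 ± 0.17 (SE, limma adjusted p = 0.00372). Itga4, a leukocyte integrin chain that also binds fibronectin, rose by 1.22 ± 0.099 (SE, limma adjusted p = 0.000634). The thrombospondin receptor Cd47, the hyaluronan receptor Cd44 and the fibronectin receptor chain Itga5 were the other 3 that rose, by 1.11, 0.77 and 0.39. Itga4, Cd44 and Cd47 are also carried by leukocytes, and the part of such cells in the receptor values was not tested.

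Small leucine-rich proteoglycans other than Dcn and Lum were lower in part. Of 10 measured, 4 fell and 0 rose (limma adjusted p under 0.05). So 40% were called, against 13.1% of all genes and 22.4% of the brighter ones. Ecm2, Fmod, Kera and Omd, 4 of the 10, had means under the intronic controls in both groups. At an unadjusted p under 0.05 in limma, 5 were lower and 1 higher, and the median difference was -0.22. The 1 higher was Bgn, biglycan, by 0.41 (limma adjusted p = 0.0931). Ogn, osteoglycin, was at 8.49, 9.11 and 8.08 in inflamed mice, against 9.45, 9.30, 9.40, 9.73 and 9.94 in control mice. All inflamed values lay below the controls, and it fell by 1.002 ± 0.24 (SE, limma adjusted p = 0.0377). Prelp, which anchors basement membrane to connective tissue, fell by 0.88 ± 0.22 (SE, limma adjusted p = 0.042), and Ecm2 fell by 0.42 ± 0.11 (SE, limma adjusted p = 0.0474) at levels of 4.02 and 4.44 in inflamed and control colon, under the intronic controls. Podn, podocan, was the other one, down by 0.22. The count was unstable: 0 or 1 fell without any 1 control or inflamed replicate 1 or 3, 5 fell without inflamed replicate 2, and 0 fell with the Xist block. Beside them, smooth muscle markers were lower, with 5 of 8 fallen (Acta2 by 0.73), against 5.04% of all genes. Their mean level was 9.67 to 9.77 on inflamed arrays and 10.15 to 10.66 on control arrays. Fibroblast markers were mixed, with Thy1 up by 0.58, Dpt and Mfap5 down by 0.58 and 0.34 and the other 4 of 7 not passed. The part of smooth muscle cells and fibroblasts in the proteoglycan values was not tested.

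Among other matrix glycoproteins, 1 of 29 measured rose and 5 fell, with a median difference of -0.034. That is 20.7% called, against 13.1% of all genes and 22.4% of the brighter ones. Tgfbi, a relative of periostin induced by transforming growth factor beta, was at 9.77, 9.77 and 10.59 in inflamed mice, against 8.96, 8.94, 9.14, 9.20 and 9.09 in control mice. It rose by 0.98 ± 0.19 (SE, limma adjusted p = 0.0171). Sparcl1, a relative of SPARC, was at 9.69, 9.55 and 9.54 in inflamed mice, against 10.24, 10.27, 10.27, 10.82 and 10.86 in control mice, and fell by 0.90 ± 0.18 (SE, limma adjusted p = 0.0171). Thbs4, a thrombospondin of muscle and tendon, fell by 1.48 ± 0.39 (SE, limma adjusted p = 0.0468). Ltbp4, Mfap5 and Tnxb, all linked to elastic or collagen fibres, fell by 0.44, 0.34 and 0.47. Mfap5 lay near background, at 5.14 in inflamed and 5.48 in control colon, and is also counted among the fibroblast markers. Sparcl1 no longer passed without inflamed replicate 3 (adjusted p = 0.0522). Thbs4 no longer passed when control 2, 3, 4 or 5 or inflamed replicate 1 or 3 was left out, with a floor on low values, or with the Xist block (up to adjusted p = 0.149).

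Of the other matrix and cell-surface proteoglycans, 2 of 15 rose and 3 fell. So 33.3% were called, against 13.1% of all genes and 22.4% of the brighter ones. Srgn, serglycin, the granule proteoglycan of leukocytes, was at 8.43, 8.15 and 8.56 in inflamed mice, against 7.05, 6.99, 6.68, 6.68 and 6.74 in control mice, and rose by 1.56 ± 0.13 (SE, limma adjusted p = 0.000641). The syndecan Sdc2, a heparan sulfate proteoglycan of mesenchymal cells, fell by 0.89 ± 0.15 (SE, limma adjusted p = 0.00934), and Agrn, agrin of basement membranes, fell by 0.54 ± 0.11 (SE, limma adjusted p = 0.0219). The glypican Gpc4 rose by 0.45 and the syndecan Sdc4 fell by 0.34. Agrn no longer passed when control 2, 3 or 4 or inflamed replicate 3 was left out (up to adjusted p = 0.0595).

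In the transforming growth factor beta pathway, a main inducer of matrix genes, 3 of 14 measured members rose and 1 fell. That is 28.6% called, against 13.1% of all genes and 22.4% of the brighter ones, with a median difference of -0.039. Tgfb1, its leading ligand, was at 7.20, 7.15 and 7.26 in inflamed mice, against 6.47, 6.61, 6.59, 6.67 and 6.64 in control mice, and rose by 0.61 ± 0.051 (SE, limma adjusted p = 0.000727). Skil, a target and repressor of the pathway, rose by 1.14 ± 0.085 (SE, limma adjusted p = 0.000495), and the receptor Tgfbr2 rose by 0.56 ± 0.085 (SE, limma adjusted p = 0.00622). Smad6, an inhibitor, fell by 0.38 (limma adjusted p = 0.0149).

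**Figure D4:**
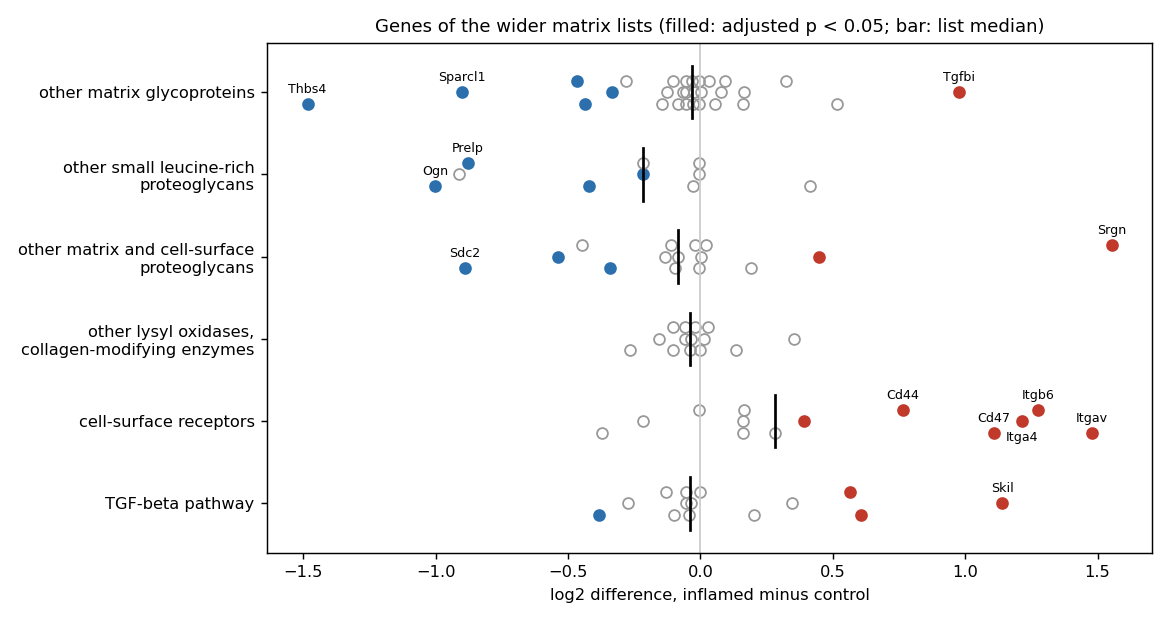
Log2 difference, inflamed minus control, of each measured gene in the 6 wider lists, 1 point per gene, with filled points past an adjusted p of 0.05 (red rose, blue fell) and a bar at each list's median. Receptors have 6 red points and 0 blue ones, the small leucine-rich proteoglycans 4 blue points and 0 red ones, and the collagen-modifying enzymes no filled point.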

How the data were processed

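RNA of 8 colons was labelled with biotin and hybridised to Affymetrix arrays, 1 per mouse. For each probe set the authors deposited a log2 intensity computed in Affymetrix Expression Console by RMA, per the submitters' processing notes. The scale was read from the range of values, and no version or setting is stated in the sources used here. The number of arrays limits the precision.

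Among 72688 probe sets, the 65956 transcript clusters were used, and controls served only as a gauge of background. Symbols of GEO's platform annotation were updated with RefSeq genes (GRCm38.p6), which gave 30604 probe sets 1 symbol and 616 several symbols of 1 gene, while 1530 with several genes were left unnamed. The brightest probe set was used for the 422 genes with more than 1. The 30689 genes were fitted by lmFit and eBayes (limma 3.58.1, R 4.3.3) without covariates, and all were kept whatever their level. The planned pair of Lox and Loxl2 could not be compared, so p-values were adjusted over 2 pairs. Xist above 8 defined the high class.

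The labels call the replicates biological. Replicate numbers 1 to 3 occur in both groups, and the sample titles state no pairing of mice. Deviations from the group mean correlated at -0.285, -0.052 and 0.069 between arrays of the same number. Such arrays were also of the same Xist class, low for numbers 1 and 2 and high for number 3. The main fit took the mice as unpaired, and these values cannot tell whether they were. Named genes were the members, the 3 largest passing changes per list (the 2 largest of any where under 2 passed) and the nearest gene of each member; further genes were named after their values were seen. The members and lists were chosen with earlier results of these data known. The limma script was tested on simulated data. Alternatives covered scaling, dim genes, a floor, probe sets, variance model, array weights, blocks and each array left out.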

Additional observations from a re-analysis of the deposited data

Results flagged for a closer look

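Thbs1 stood out in 2 ways. Within the 5 control mice, control replicate 3 at 8.39 lay apart from the other 4, which were at 8.20 to 8.25 with 3 of them at 1 identical value. Of 25 control groups checked this was the only one, and chance flags about 1 in 20. The inflamed minus control difference of Thbs1 was 0.68 among arrays with high Xist (1 inflamed and 3 control) and -0.58 among arrays with low Xist (2 inflamed and 2 control), with every inflamed value on its own side of the controls. That opposite direction was not tested, and it rests on inflamed replicate 3 as the single inflamed mouse with high Xist.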

How the results depend on the processing

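Of 136 differences of single members under 17 alternatives, 122 kept their call, 12 lost it, 2 gained it and 0 changed direction while called. The 12 were those of Postn and, with the replicate block, Lox (0.57, adjusted p = 0.201), and the 2 were Fn1 with the Xist block and Thbs1 without inflamed replicate 3. The cause of these changes was not tested.

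No member was called lower after median centring, with a floor at the median of all values, or with the Xist block (0 each, against 1, 1 and 2 at an unadjusted p under 0.05 in limma), and 2 were called higher with the Xist block. Over all genes, those called lower numbered 1001 with the floor and 2345 with array weights, against 1546. Pathway genes called lower numbered 8 with the floor and 8 with the Xist block, against 13. The Dcn minus Lum difference lost its call after quantile normalization (0.48), while Tnc minus Fn1 gained one with the Xist block (-0.25), at the smallest p its 24 splits allow. The plain difference of means within the Xist classes (0.51 and -0.20) gave neither pair a call (adjusted p = 0.0833 and 0.125), and the fitted one was taken up after that result had been seen. With each array left out, members called lower ranged from 0 to 1, all genes called lower from 846 to 1950, pathway genes called lower from 6 to 13, Dcn minus Lum from 0.46 to 0.59 and Tnc minus Fn1 from -0.29 to -0.14. With fewer arrays there are fewer splits, so the exact test's smallest p is larger.

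No pairing by replicate number is stated, and whether the mice were paired cannot be told here. With the replicate block limma called 0 genes higher and 0 lower (2777 and 2136 at an unadjusted p under 0.05). It called 0 members and 0 pathway genes in either direction. At an unadjusted p under 0.05 in limma, 2 members were higher and 0 lower, and 20 pathway genes were higher and 14 lower. Inflamed replicates 1, 2 and 3 correlated best with controls 3, 1 and 4. No alternative could be run for Lox minus Loxl2. Lox, Mfap5 and Ecm2 lie near or under the intronic controls, which limits their folds.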
